A study of Homo sapiens with 5 samples.

Results

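Open chromatin far from any gene start was examined in a single-nucleus experiment on 5 mixed human lung adenocarcinoma cell lines. The members were the 26268 peaks on chr1 to chr22 that lay more than 50000 bp from every gene-start interval of the deposited feature table, which made up 17.1% of the 153932 peaks on these 22 chromosomes and were taken from 158342 peaks in all. They were compared with 43915 gene-start peaks, at most 1000 bp from such an interval, and with 83749 intermediate peaks between these limits. Among the called peaks only distance chose the members, so ATAC counts, sequence and the RNA of the same nuclei had no part in that step. The peaks themselves had been found from the ATAC data of the portion. The members just inside the limit were chr3:123365441-123366336, 50005 bp from ADCY5 and found in 103 nuclei, and chr11:57130821-57131740, 50006 bp from LRRC55 and found in 39 nuclei. Just outside it lay chr8:18441286-18442151, 49998 bp from NAT2 and found in 23 nuclei, and chr10:26488423-26489070, 49997 bp from APBB1IP and found in 126 nuclei.

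Cultures of A549, HCC827, H1975, H2228 and H838 cells were kept apart, with no drug or genetic change named in the labels, and were combined in equal parts before their nuclei entered the 10X Multiome assay, which reads RNA and ATAC (transposase-accessible DNA) of a nucleus under a shared barcode. The barcoded droplets (GEMs) were divided into an 80% and a 20% portion, each with 1 RNA and 1 ATAC library. With 1 library per portion there were no replicates, so no test was possible between groups, and intervals here are exact 95% binomial ones that cover counting error only. Each line is a tumour-derived culture with its own gains and losses of DNA, and nothing in the labels says which line a nucleus came from.

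DNA elements far from promoters include enhancers, which bind transcription factors and can raise the transcription of a gene over long distances, and insulators bound by CTCF, which holds the bases of chromatin loops. Enhancers differ between cell types more than promoters do, and the factors that open them often leave recognisable short words in the DNA. In lung epithelium and its tumours, such factors include AP-1 (dimers of FOS and JUN proteins), TEAD, CEBP and FOXA proteins.

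The 80% matrix held 6557 nuclei and 63920767 ATAC counts, with a median of 8784 ATAC counts and 13306 RNA UMIs per nucleus. The 20% matrix held 1286 nuclei and 12850543 ATAC counts in peaks of its own. Of the barcodes in the 20% matrix, 159 (12.4%) also occurred in the 80% matrix. Scrublet marked 385 nuclei (5.87%) of the 80% matrix as doublets, between 0.483% and 10.5% of each cluster, and they were kept. RNA alone placed the 80% nuclei in 5 clusters, which are called by number because no line was assigned to them. Cluster 0 (2485 nuclei) was led by MALAT1, S100A10 and S100A6, cluster 1 (1459 nuclei) by ALDH1A1, AKR1B10 and KRT18, cluster 2 (1449 nuclei) by LDHB, ITPR2 and EEF1A1, cluster 3 (835 nuclei) by ACTB, HSP90AA1 and PVT1, and cluster 4 (329 nuclei) by EGFR, RPL7 and SEC61G. At a slightly higher resolution cluster 3 divided into groups of 469 and 366 nuclei, and values for these groups are given beside some of the results.

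Reference sequences of 5 members show what the peaks look like at the level of bases. They were read from hg38 as the central 300 bases of the peak on the plus strand. Capitals mark every match, on either strand, to AP-1 (TGANTCA), CTCF, FOXA (TGTTTAC), TEAD (GGAATG), SP/KLF (GGGCGG), ETS (CCGGAAG), CEBP (TTGCNNAA), RUNX (TGTGGTT) and NRF1 (GCGCATGC). A match is a run of letters and says nothing about binding. The first 3 are members whose counts came mostly from 1 RNA cluster, and the last 2 are members found in the most nuclei.
Region 1 (cluster 0), chr3:170802716-170803015, plus strand: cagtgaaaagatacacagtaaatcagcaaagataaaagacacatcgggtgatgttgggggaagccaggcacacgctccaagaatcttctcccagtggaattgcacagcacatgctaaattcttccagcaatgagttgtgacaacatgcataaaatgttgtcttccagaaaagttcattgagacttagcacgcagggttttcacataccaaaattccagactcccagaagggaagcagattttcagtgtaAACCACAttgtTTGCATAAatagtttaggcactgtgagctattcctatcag
Region 4 (cluster 1), chr2:62570166-62570465, plus strand: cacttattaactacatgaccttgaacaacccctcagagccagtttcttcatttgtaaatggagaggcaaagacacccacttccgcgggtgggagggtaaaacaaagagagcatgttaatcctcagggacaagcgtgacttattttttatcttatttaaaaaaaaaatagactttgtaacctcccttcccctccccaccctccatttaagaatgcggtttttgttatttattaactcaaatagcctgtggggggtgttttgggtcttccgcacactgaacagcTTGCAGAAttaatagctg
Region 7 (cluster 2), chr12:25458202-25458501, plus strand: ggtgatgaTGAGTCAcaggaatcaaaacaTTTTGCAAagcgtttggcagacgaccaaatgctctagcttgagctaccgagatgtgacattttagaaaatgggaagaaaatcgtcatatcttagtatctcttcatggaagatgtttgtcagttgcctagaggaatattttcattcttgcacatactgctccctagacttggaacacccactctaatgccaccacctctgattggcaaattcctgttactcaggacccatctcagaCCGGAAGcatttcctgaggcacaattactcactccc
Region 16 (broad), chr2:64751060-64751359, plus strand: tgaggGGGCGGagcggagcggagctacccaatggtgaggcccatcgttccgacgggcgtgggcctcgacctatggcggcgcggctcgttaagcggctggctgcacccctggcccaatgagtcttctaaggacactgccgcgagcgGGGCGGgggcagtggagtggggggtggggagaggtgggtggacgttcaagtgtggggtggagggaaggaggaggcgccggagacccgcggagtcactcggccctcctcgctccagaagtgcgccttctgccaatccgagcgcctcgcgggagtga
Region 18 (broad), chr3:93470452-93470751, plus strand: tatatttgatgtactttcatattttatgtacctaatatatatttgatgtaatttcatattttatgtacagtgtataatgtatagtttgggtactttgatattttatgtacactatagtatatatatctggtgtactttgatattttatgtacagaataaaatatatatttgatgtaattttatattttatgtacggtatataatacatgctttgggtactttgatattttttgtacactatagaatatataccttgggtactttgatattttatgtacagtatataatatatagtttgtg

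Region 4 held a CEBP match. Region 1 had a RUNX and a CEBP match near its 3′ end, and region 7 had an AP-1, a CEBP and an ETS match. The broad members differed in base composition, with 69.3% G and C and 2 SP/KLF matches in region 16, and 21.7% G and C and no match in region 18, whose sequence repeats itself.

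Peaks far from gene starts were detected in few nuclei. The median member had a count in 50 of 6557 nuclei (0.763%), with quartiles at 30 and 102 nuclei and a range from 7 to 2830. The median was 1.07% of nuclei for intermediate peaks and 2.06% for gene-start peaks. Together the members covered 22.9 Mb and held 5263902 counts, which was 8.24% (interval 8.23 to 8.24) of all ATAC counts, against 53.3% in gene-start peaks. Per peak, this came to 200 counts in the members, 278 in intermediate peaks and 776 in gene-start peaks. Peak width did not separate the classes, with medians of 890, 888 and 884 bp in the same order. With every nucleus thinned to 3000 ATAC counts, which left out 532 nuclei, the median breadth was 0.382% for the members and 1.01% for gene-start peaks.

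Most members lay in the lowest range of breadth. Of the 26268, 15984 (60.8%) were found in under 1% of nuclei, 1039 (3.96%) in 5 to 10%, 334 (1.27%) in 10 to 25% and 12 (0.0457%) in 25% or more. Among gene-start peaks 17.2% were found in 10 to 25% of nuclei and 2.66% in 25% or more. Counts were concentrated in few members, since the top 10% by counts, 2626 peaks, held 45.5% of the counts of all members. Where a nucleus had any count in a member, the value was even in 92.4% of cases and equal to 2 in 87.3%. How the deposited counts treat the 2 ends of a fragment is not stated. The interval given above for the share of ATAC counts treats each count as independent. It is too narrow where counts come in pairs.

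**Figure D1:**
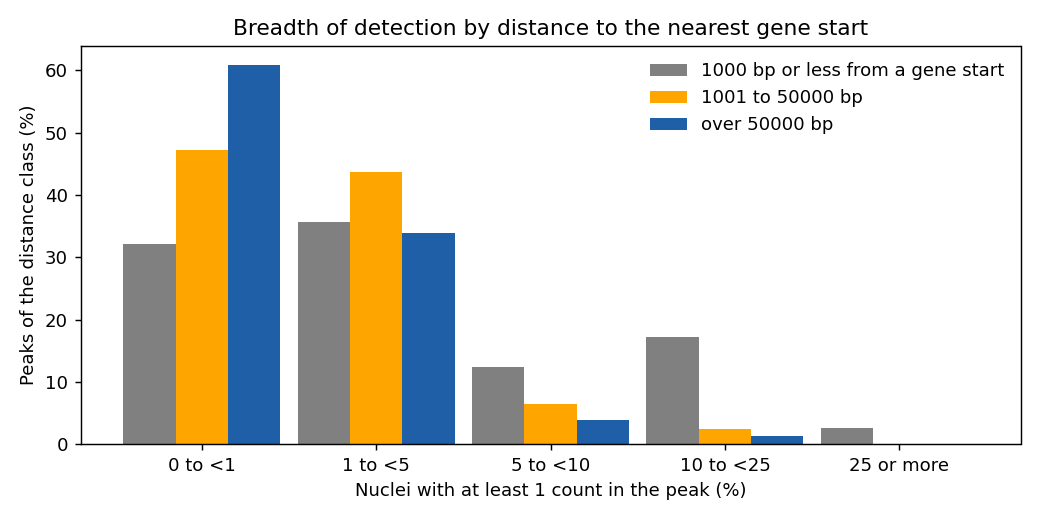
Percent of the peaks of each distance class (vertical axis) in 5 ranges of breadth, the percent of the 6557 nuclei of the 80% portion with at least 1 count in the peak (horizontal axis). Grey bars are gene-start peaks, orange bars intermediate peaks and blue bars peaks over 50000 bp from gene starts, of which 60.8% lie in the lowest range.

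The distance of the members to the nearest gene start had a median of 84794 bp and reached 1626957 bp. There were 16191 members at up to 100000 bp, 7563 at 100000 to 200000 bp, 2370 at 200000 to 500000 bp and 144 beyond. Breadth fell along these ranges, with medians of 0.824%, 0.717%, 0.610% and 0.564% of nuclei, and so did the median G and C content, from 45.3% to 42.0%. Against GENCODE v44, 52.1% of the members lay in introns, 44.7% between genes and 3.17% on exons. The intergenic share rose from 40.9% in the nearest range to 80.6% in the farthest.

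Far from a gene start in the deposited table did not always mean far from any annotated transcript. GENCODE v44 places a transcript start within 1000 bp of 1444 members (5.50%), and 9498 members (36.2%) had none within 50000 bp. Members at such a start had a median breadth of 0.976%, against 0.747% for the others. Among the 346 members found in at least 10% of nuclei, 58 (16.8%) lay at a GENCODE start.

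Members were spread over all 22 chromosomes, but not evenly. They made up 2.49% of the peaks on chromosome 19 and 24.9% of those on chromosome 13, and their density ran from 2.56 per Mb on chromosome 19 to 11.7 per Mb on chromosome 20. Chromosome 19 is rich in genes and chromosome 13 is poor in them. The windows of 1 Mb with the most members were chr5:143000001-144000000 with 64 around ARHGAP26-IT1 and HMHB1, chr14:68000001-69000000 with 60 near ZFP36L1, which destabilises short-lived mRNAs, and chr2:226000001-227000000 with 58 around IRS1, the adaptor of the insulin receptor. Next came chr8:128000001-129000000 with 57 around PVT1, a long non-coding RNA gene beside MYC, and chr2:109000001-110000000 with 56 in and near SH3RF3. In the chromosome 14 window the summed level of the members was 464, 233, 165, 379 and 236 counts per 1000000 ATAC counts (CPM) in clusters 0 to 4. In the chromosome 8 window it was 360, 239, 220, 2519 and 498 CPM, so cluster 3 stood far above the rest there and in none of the other 4 windows.

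Introns of long genes held many of the members. RAD51B, a gene of homologous recombination, had 63 of them, RUNX1, a transcription factor, 54, LPP 43, FNDC3B 42, EXT1, a heparan sulfate polymerase, 41, TNIK, a kinase of the Wnt pathway, 41, PTPRG, a receptor tyrosine phosphatase, 40, and SH3RF3 40. Across these 8 genes the summed ATAC level of these members was lowest in cluster 1, except in RAD51B, where cluster 2 was lowest. For RAD51B it was 466, 215, 152, 356 and 240 CPM in clusters 0 to 4, beside RNA levels of 361, 242, 102, 261 and 304 CPM. For RUNX1 it was 134, 43.6, 189, 179 and 182 CPM, beside RNA of 249, 36.5, 88.7, 297 and 435 CPM. Cluster 1 was lowest in both measures for RUNX1 and cluster 2 in both for RAD51B. In PTPRG the members had 89.3, 34.3, 196, 66.5 and 121 CPM and the RNA 207, 123, 596, 155 and 285 CPM, with cluster 2 highest and cluster 1 lowest in both. In LPP, which encodes a focal adhesion protein, the members were highest in cluster 0 at 245 CPM whereas the RNA was highest in cluster 4 at 1025 CPM. Between 1 and 5 of the 17 to 41 tested members of each gene met the rule of restriction described next, which 9.88% of all tested members met. In the 20% portion the peaks overlapping the RUNX1 members had 120, 31.8, 126, 123 and 176 CPM, again with cluster 1 lowest.

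A member was tested for restriction where at least 50 nuclei over all clusters had a count, which 13279 (50.6%) did. A restricted member could thus pass mainly through its top cluster, as region 11 (described below) did, with 274 of 288 nuclei in cluster 3. A tested member was called restricted where its CPM in a cluster was at least 4 times that of the next cluster. The next cluster was set at no less than 3 counts, and the top cluster needed at least 10 nuclei with a count. By this rule 1312 tested members (9.88%, interval 9.38 to 10.4) were restricted, against a background of 6.79% over all 100266 tested peaks. The share was 7.00% for intermediate and 5.19% for gene-start peaks. The median fold of the top cluster over the next was 1.46 for the members, 1.40 for intermediate and 1.30 for gene-start peaks, and 3.74%, 2.20% and 1.80% of the tested peaks reached 8-fold. Of the 1312, 233 (17.8%) had a next cluster known only by the 3-count limit. Their folds do not exceed the observed ones, but the limit does not bound the true level of the next cluster.

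Because narrowly detected peaks are more often restricted and the members are narrowly detected, the classes were set side by side at the same breadth. Between 50 and 99 nuclei the restricted share was 12.3% (interval 11.6 to 13.2) for members and 11.2% (10.5 to 11.9) for gene-start peaks, and these intervals overlapped. It was 9.79% (8.86 to 10.8) against 7.68% (7.06 to 8.33) at 100 to 199 nuclei, 5.53% (4.56 to 6.64) against 3.57% (3.10 to 4.09) at 200 to 399, and 2.46% (1.51 to 3.77) against 1.13% (0.868 to 1.44) at 400 to 799. At 800 or more nuclei 6 of 185 members were restricted, 3.24% (1.20 to 6.93), against 33 of 7019 gene-start peaks, 0.470% (0.324 to 0.660). The members therefore had the higher share in each of the 5 ranges, with separate intervals in the 4 broader ones. Against intermediate peaks the intervals were separate in the 2 narrowest ranges only. In these 2 ranges intermediate peaks had 9.37% (8.99 to 9.76) and 6.98% (6.59 to 7.38), below gene-start peaks. In the broader ranges they lay above gene-start peaks, so the order of these classes depended on breadth. Members of all ranges share nuclei and libraries, which these intervals do not cover. Nearby peaks are not independent either. Of 456 restricted members with the next tested member under 10000 bp away, 25.4% had it restricted to the same cluster. The intervals are thus too narrow, and separate ones are no test between classes, here or after the division described below.

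**Figure D2:**
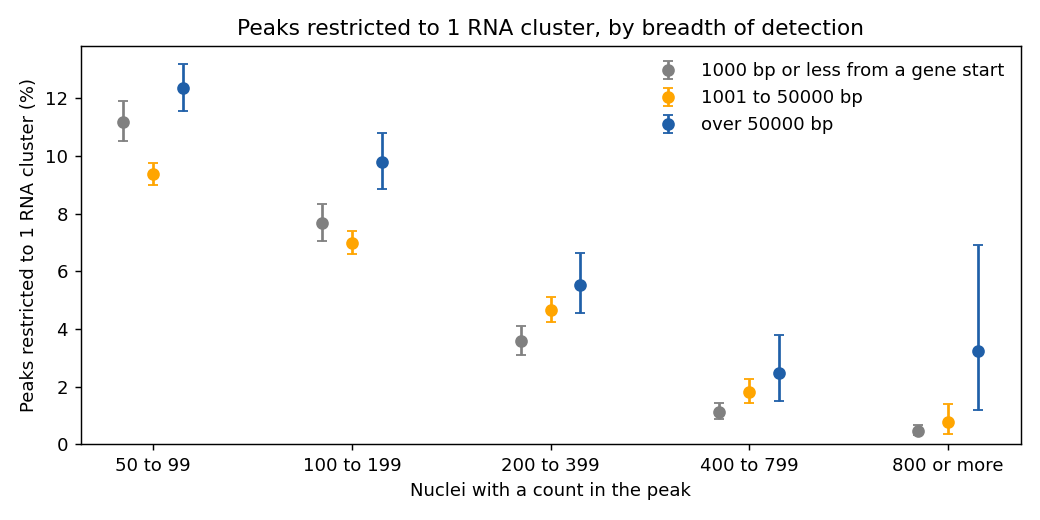
Percent of tested peaks restricted to 1 RNA cluster (vertical axis) in 5 ranges of the number of nuclei with a count (horizontal axis), for gene-start (grey), intermediate (orange) and far (blue) peaks. Points are shares and bars exact 95% binomial intervals; the far peaks have the highest share in each range, from 12.3% at 50 to 99 nuclei to 2.46% at 400 to 799.

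Restriction rose with distance over the first 3 ranges and not beyond. It was 9.11% (interval 8.51 to 9.73) up to 100000 bp, 10.9% (9.93 to 12.0) at 100000 to 200000 bp, 13.0% (10.9 to 15.3) at 200000 to 500000 bp, and 9.62% (3.20 to 21.0) in the farthest range, where only 52 members were tested. Breadth also fell along these ranges, and the shares were not compared at equal breadth. After the division by flanking peaks described next they were 7.59%, 8.26%, 9.28% and 5.77%. Intergenic members were restricted in 10.7% and intronic ones in 9.25% of cases. Leaving out members at a GENCODE start gave 9.89%. Among the 346 members in at least 10% of nuclei, 2.02% were restricted, and none of the 58 at a GENCODE start.

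Gains and losses of DNA can raise or lower all peaks of a region together. Each peak was therefore also divided by the counts of the peaks within 1 Mb on either side, without those within 10000 bp. The top and the next cluster were then found anew, so a fold after the division can belong to another pair of clusters. After this division 1047 members (7.88%) were restricted, against a background of 5.34%, and 3.81% of gene-start peaks. Of the 1312 restricted members, 866 (66.0%) were restricted in both ways, all 866 to the same cluster, and 181 others were restricted only after the division. With cluster 3 divided, so that there were 6 clusters, 7.98% of the tested members and 4.32% of the tested gene-start peaks were restricted.

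The division also changed the comparison at equal breadth. At 50 to 99 nuclei 10.1% (9.36 to 10.8) of members and 8.75% (8.14 to 9.39) of gene-start peaks were restricted after it, again with overlapping intervals. In the next 3 ranges the members had the higher share, with separate intervals, as in 3.69% (2.90 to 4.62) against 2.37% (1.99 to 2.80) at 200 to 399 nuclei. At 800 or more nuclei the direction turned, with none of the 185 members (0 to 1.97%) against 6 of 7019 gene-start peaks, 0.0855% (0.0314 to 0.186), and these intervals overlapped.

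By cluster, 299 of the tested members (2.25%) were restricted to cluster 0, against a background of 1.47%, 303 (2.28%) to cluster 1, against 1.63%, 441 (3.32%) to cluster 2, against 2.24%, 204 (1.54%) to cluster 3, against 1%, and 65 (0.489%) to cluster 4, against 0.442%. Cluster 4 had the fewest counts, 3915269, so that 3 counts stood for 0.766 CPM there and 0.103 CPM in cluster 0. After the division by flanking peaks the counts were 210, 294, 368, 140 and 35, and the count for cluster 1 changed least.

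Other patterns than restriction were also more common among the members than over all peaks. A member was called missing in a cluster where that cluster, at no less than 3 counts, had a CPM at least 4 times below the next lowest. This held for 1202 members (9.05%), against a background of 6.61%. Of the tested members, 637 (4.80%) were missing in cluster 1, against 3.52% of intermediate and 2.45% of gene-start peaks. In cluster 2, 382 (2.88%) were missing, against 1.97% and 1.99%. These clusters also led in the other distance classes. Another 571 members (4.30%), against a background of 2.87%, were not restricted but high in a pair of clusters, with both at least 4 times the next, and some of these were also missing in a cluster. The pair of clusters 3 and 4 accounted for 238 of these (41.7%), followed by clusters 0 and 3 with 72 and clusters 1 and 2 with 65. Meanwhile 10248 of the tested members (77.2%) showed none of these patterns. Unlike restriction, being missing or high in a pair was not compared at equal breadth or after the division by flanking peaks.

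The 3 restricted members with the highest level in each cluster show the range of these patterns. Of the members restricted to cluster 0, region 1, chr3:170802394-170803337, lay in an intron of a gene without a symbol, 61028 bp from AC026316.2. Its level was 42.5 CPM in cluster 0 and 1.06, 4.18, 2.95 and 2.55 CPM in clusters 1 to 4, and 21.6% (interval 20.0 to 23.3) of cluster 0 nuclei had a count there. Region 2, chr11:78801043-78801961, in an intron of TENM4, a teneurin of cell adhesion, had 41.7 CPM in cluster 0 and at most 2.76 CPM elsewhere. Region 3, chr9:76215921-76216826, in an intron of the proprotein convertase gene PCSK5 and 177599 bp from RFK, had 40.5 CPM in cluster 0 and 3.83 to 6.43 CPM elsewhere. The first 2 stayed restricted after the division by flanking peaks and region 3 did not, with a fold of 3.18 after it. In the 20% portion the peaks overlapping these regions had 46.4, 43.1 and 43.7 CPM in cluster 0.

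The 3 named members restricted to cluster 1 all stayed restricted after the division. Region 4, chr2:62569886-62570745, 63690 bp from TMEM17, had 5.21, 72.8, 0.750, 1.87 and 7.92 CPM in clusters 0 to 4 and was found in 24.0% (21.8 to 26.3) of cluster 1 nuclei. RNA of TMEM17 was 5.68, 8.54, 7.18, 4.25 and 2.88 CPM, highest in cluster 1 by a small margin. Region 5, chr2:72271682-72272611, lay in an intron of EXOC6B and 123643 bp from CYP26B1, which breaks down retinoic acid. It had 53.4 CPM in cluster 1 and at most 2.36 CPM elsewhere. Cluster 2 had 0 counts in it, where the limit of 3 counts stands for 0.321 CPM. CYP26B1 RNA was 2.96, 11.5, 7.92, 6.20 and 1.23 CPM. Region 6, chr9:87372160-87373018, 72776 bp from AL353752.2, had 49.5 CPM in cluster 1 and at most 2.04 CPM elsewhere, and held FOXA and TEAD matches. The 20% portion gave 65.6, 51.3 and 47.7 CPM in cluster 1 for the 3 regions.

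For cluster 2, 2 of the 3 lay on chromosome 12. Region 7, chr12:25457894-25458810, in an intron of LMNTD1, had 13.4, 7.43, 152, 14.3 and 11.2 CPM and was found in 36.6% (34.2 to 39.2) of cluster 2 nuclei. Region 8, chr12:27898972-27899877, 58639 bp from AC008011.2, had 111 CPM in cluster 2 and at most 4.60 CPM elsewhere. Peaks flanking these regions were themselves 3.04 and 3.09 times higher in cluster 2 than in the next cluster. After the division, with top and next cluster found anew, the folds were 2.01 and 5.54, so only region 8 stayed restricted. Region 9, chr20:51335183-51336190, 206528 bp from NFATC2, a transcription factor of the calcineurin pathway, had 106 CPM in cluster 2 and 19.6 CPM in cluster 3. RNA of NFATC2 was 27.8 CPM in cluster 2 and 28.4 CPM in cluster 4, where region 9 had 5.62 CPM. Region 9 had 3.42-fold left after the division and did not stay restricted.

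For cluster 3, the highest member was region 10, chr8:128176523-128177425, in an intron of PVT1 and 127370 bp from its start. Its level was 97.6, 108, 68.3, 769 and 190 CPM in clusters 0 to 4, with a count in 87.1% (84.6 to 89.3) of cluster 3 nuclei and in 19.7% to 57.1% of the others. Flanking peaks were 3.73 times higher in cluster 3 than in the next cluster. The fold was 4.05 before and 1.02 after the division, with top and next cluster found anew. In the split of cluster 3 the groups of 469 and 366 nuclei had 407 and 1340 CPM. RNA of PVT1 was 1582 CPM in cluster 3 and 293 to 638 CPM elsewhere. Region 11, in an intron of ZNF675, a zinc finger gene, had 68.8 CPM in cluster 3 and at most 1.02 CPM elsewhere. This was a fold of 67.3 over cluster 4, and its flanking peaks were 4.09 times higher in cluster 3 than in cluster 4. After the division its fold was 1.02, which is over another pair of clusters and so is not what the flanks leave of the 67.3. Region 12, chr17:53105797-53106692, had 56.9 CPM in cluster 3 and at most 2.57 CPM elsewhere, and stayed restricted with 6.09-fold. It lies 62 bp from a GENCODE transcript start. It overlaps MTCO1P40, a nuclear copy of the mitochondrial gene MT-CO1, and reads of the 2 copies may be hard to tell apart.

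For cluster 4, region 13 had as its nearest gene SEC61G, which encodes a part of the protein translocation channel, in the region that also holds EGFR. It had 8.01, 5.22, 4.50, 31.1 and 519 CPM, with a count in 76.6% (71.6 to 81.1) of cluster 4 nuclei. Its flanking peaks were 14.2 times higher in cluster 4 than in the next cluster, and 1.18-fold was left after division by them. RNA of SEC61G was 4263 CPM in cluster 4 and 402 to 504 CPM elsewhere. Region 14, chr20:25496758-25497646, lies on an exon of NINL, a centrosomal protein gene, and on a GENCODE transcript start. It had 33.2 CPM in cluster 4 and 1.41 to 7.48 CPM elsewhere and stayed restricted with 4.94-fold. Region 15, chr2:78541539-78542417, 55493 bp from AC092660.1, had 32.4 CPM in cluster 4 and at most 6.43 CPM elsewhere. Its flanking peaks were 1.45 times higher in cluster 4 than in the next cluster. After the division its fold was 1.08, over another pair of clusters. Of the 15 regions, 8 stayed restricted after division by flanking peaks.

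**Figure D3:**
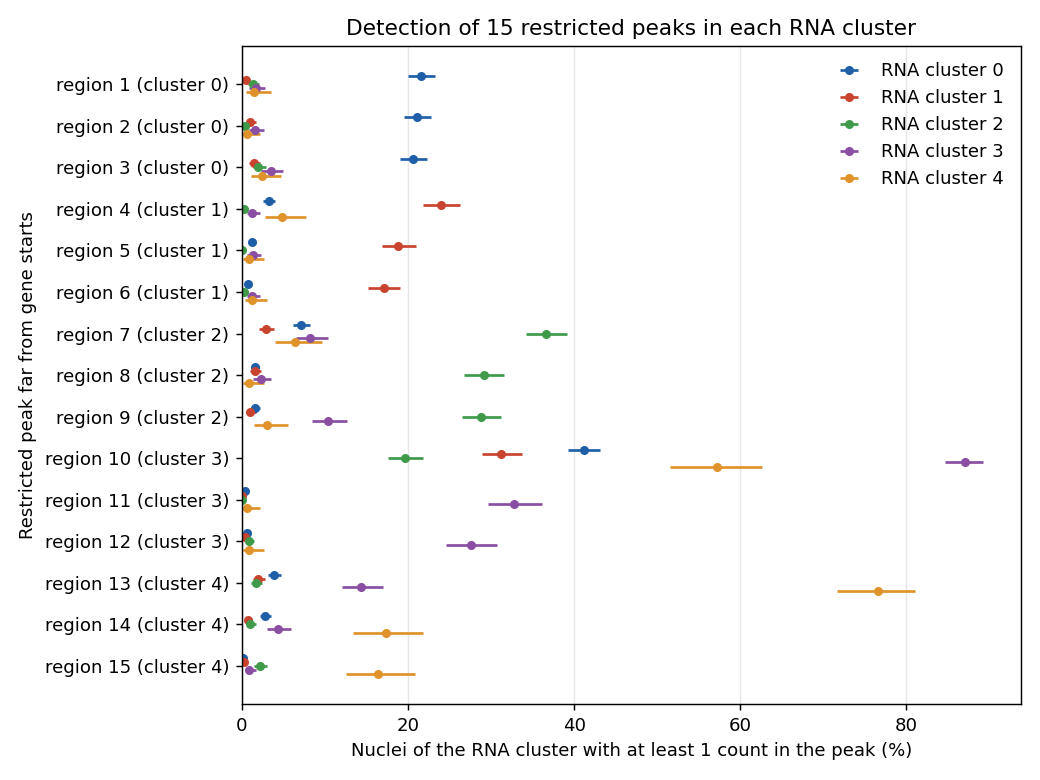
Percent of the nuclei of each RNA cluster with at least 1 count (horizontal axis) in the 15 restricted members with the highest level in a cluster (vertical axis, 3 per cluster). Points are shares, colours mark the clusters and bars are exact 95% binomial intervals; regions 10 and 13 reach 87.1% and 76.6% in their top cluster, and region 10 is also found in 19.7% to 57.1% of the nuclei of the other clusters.

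Some windows of 1 Mb held many restricted members, although most restricted members lay elsewhere, spread over 817 of the 2423 windows with a member. In the window chr8:128000001-129000000, 20 of 41 tested members were restricted to cluster 3, of which 1 stayed so after the division. Its flanking peaks were 3.92 times higher in cluster 3 than in the next cluster. In chr7:54000001-55000000, 14 of 16 tested members were restricted to cluster 4 and none after the division, with flanking peaks 14.0 times higher. In chr19:23000001-24000000, 11 of 12 tested members were restricted to cluster 3 and none after the division. Region 11 lies in this window, and its fold after the division was over another pair of clusters. In the windows chr1:91000001-92000000 and chr12:27000001-28000000, 10 of 30 and 9 of 14 tested members were restricted to cluster 2, of which 4 and 3 stayed so. These 5 windows held 64 (4.88%) of the restricted members, and without them 9.48% of the tested members were restricted.

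Adjacent members shared their top cluster more often the closer they lay, although most pairs did not share it. Among neighbouring tested members under 10000 bp apart, 39.9% of 4898 pairs had the same top cluster, against 35.0% of 4343 pairs at 10000 to 100000 bp and 27.9% of 3295 pairs at 100000 to 1 Mb. After the division by flanking peaks the shares were 34.4%, 27.6% and 20.8%. Where both neighbours were restricted, 90.6% of 128 pairs under 10000 bp apart were restricted to the same cluster, against 79.5% of 73 and 40.0% of 50 pairs in the wider ranges.

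The members found in the most nuclei had mostly even levels across clusters. Region 16, chr2:64750752-64751668, was found in 43.2% of all nuclei and had 121, 166, 100, 105 and 105 CPM in clusters 0 to 4. It lies on a GENCODE transcript start although 85316 bp from the nearest gene of the deposited table. Regions 19, chr11:67805261-67806095, and 20, chr9:40991739-40992660, were found in 35.5% and 33.4% of nuclei, also lie on GENCODE starts and have 67.3% and 65.0% G and C. Region 18, chr3:93470147-93471056, the repetitive sequence shown above, was found in 35.5% of nuclei with 60.2, 146, 215, 127 and 97.1 CPM, and how many genomic copies its reads could match was not examined. The PVT1 peak (region 10) was next in breadth after region 16, with a count in 40.9% of nuclei, and the only restricted member among these 5. The farthest tested member, region 21, chr22:12601794-12602698, lay 1535375 bp from the nearest gene start of the table but on a GENCODE start, and had 30.5 CPM in cluster 2 and at most 2.55 CPM elsewhere.

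The 20% portion, the other part of the divided GEMs with libraries of its own, gave the same top cluster for nearly all restricted members. Of the 1312, 1004 (76.5%) overlapped a peak called in the 20% portion, and 984 of these (98.0%, interval 96.9 to 98.8) had their highest CPM in the same cluster. For tested members that were not restricted the share was 60.1% (59.1 to 61.1) of 9671. By cluster it ran from 93.5% of 46 members for cluster 4 to 99.6% of 223 for cluster 1. The median fold was 6.66 in the 80% and 2.71 in the 20% portion. Of the 1004, 279 (27.8%) reached 4-fold in the 20% portion. The limit of 3 counts stands for a higher CPM there, which lowers the folds that sparse members can reach. The members had also been chosen by their fold in the 80% portion. These folds therefore cannot show how well the size of the difference was held. The part of either in the lower fold was not tested. The clusters of the 20% nuclei were set by their RNA, and the same rule put 98.0% of the 80% nuclei back where clustering had placed them. The rule compares nuclei with cluster means made from these same 80% nuclei. A high share was therefore likely beforehand, and how well the rule places 20% nuclei was not tested.

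RNA of the nearest gene followed the restricted members in part. Of 592 restricted members whose nearest gene reached 5 CPM of RNA, 295 (49.8%, interval 45.7 to 53.9) had that gene highest in the same cluster, against 33.4% (32.2 to 34.6) of 6013 tested members that were not restricted. Where the gene was at least 2-fold higher in its top cluster than in the next, the shares were 72.1% of 222 and 39.8% of 1314. By cluster, without the 2-fold condition, the share was lowest for cluster 0, at 40.5% (31.8 to 49.6) of 126. That interval holds the value for members that were not restricted. The share was 49.5% to 52.6% for clusters 1 to 3, and highest for cluster 4, at 74.4% (57.9 to 87.0) of 39. Over all tested members with the same top cluster, restricted ones included, it was 38.7%, 40.4%, 41.1%, 24.5% and 30.5% for clusters 0 to 4. For members restricted after the division by flanking peaks the share was 36.6% (32.2 to 41.2) of 459. This interval also holds the value for members that were not restricted. With the 2-fold condition it was 52.8% (43.7 to 61.8) of 125 after the division, above the 39.8% (37.1 to 42.5) of members that were not restricted. Taking any gene start within 500000 bp, with a median of 4 expressed genes in reach for both groups, gave 70.5% for restricted and 63.7% for the other tested members.

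The members were rich in AP-1 matches. The AP-1 word TGANTCA occurred in the central 300 bases of 42.5% of the members, 35.5% of intermediate and 25.2% of gene-start peaks, and 33.7% of all peaks on chr1 to chr22. In windows of the same length 3000 bp beside the members it occurred in 9.93%. SP/KLF matches (GGGCGG), typical of CpG-rich promoters, ran the other way, with 6.16% of members and 33.5% of gene-start peaks against 16.7% over all peaks. CTCF matches were found in 3.45% of members, 2.40% of gene-start and 4.23% of intermediate peaks, 3.58% of all peaks and 0.129% of the windows beside the members. The median G and C content was 44.7% in the members, 52.7% in gene-start peaks and 40.3% in the windows beside the members, so base composition differed along with the matches.

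AP-1 matches rose with breadth up to the members in 5 to 10% of nuclei and were level above that. The share was 38.1% among members found in under 1% of nuclei, 47.6% at 1 to 5%, 61.6% at 5 to 10% and 61.3% at 10% or more, and 68.1% among the 288 of the last group without a GENCODE start within 1000 bp. Among intermediate peaks it rose as well, at 32.3%, 36.7%, 46.5% and 45.5% over the same ranges. Among gene-start peaks it fell over these ranges, from 31.4% to 30.7%, 20.7% and 8.15%. SP/KLF matches rose with breadth in both classes, to 23.1% of the members and 76.7% of the gene-start peaks found in at least 10% of nuclei. CTCF matches were most frequent among members in 1 to 5% of nuclei, at 4.52%, and were found in 0.578% of those in at least 10%.

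CTCF and AP-1 matches were less frequent in restricted members than in the other tested members. CTCF matches occurred in 0.457% of the restricted members and 4.61% of the tested members that were not restricted, and of the members with a CTCF match 1.08% of those tested were restricted, against 10.3% without it. The RNA of CTCF itself was nearly level, at 59.8, 59.1, 62.0, 53.5 and 60.9 CPM in clusters 0 to 4. AP-1 matches occurred in 36.8% against 48.7%, but the clusters differed. They were found in 66.7% of the members restricted to cluster 3 and 55.4% of those restricted to cluster 4, and in 37.1%, 27.4% and 26.5% for clusters 0, 1 and 2. Members high in clusters 3 and 4 together held them in 66.8% of 238 cases, against 40.8% of 333 in other pairs. After the division by flanking peaks the cluster 3 share was 63.6% of 140. Broader members were less often restricted and more often held AP-1 matches, and shares in restricted and other members were not compared at equal breadth.

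Other motifs also followed the clusters. FOXA matches (TGTTTAC) occurred in 12.9% of members restricted to cluster 1 and 3.43% to 7.69% for the others, against 5.28% of all peaks. CEBP matches (TTGCNNAA) occurred in 27.7% and 28.1% for clusters 1 and 2 and in 14.2% to 18.1% for clusters 0, 3 and 4, against 15.2% of all peaks. TEAD matches (GGAATG) ranged from 18.4% for cluster 0 to 33.3% for cluster 2, against 21.6% of all peaks. RUNX matches (TGTGGTT) occurred in 17.2% for cluster 3 and 4.95% for cluster 1, against 8.16% of all peaks. With 6 clusters, the parts of cluster 3 with 469 and 366 nuclei had 68 and 67 restricted members, of which 11.8% and 2.99% held FOXA matches, 8.82% and 19.4% RUNX matches and 67.6% and 52.2% AP-1 matches. The low FOXA and high RUNX shares of cluster 3 were nearer to those of its smaller part.

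**Figure D4:**
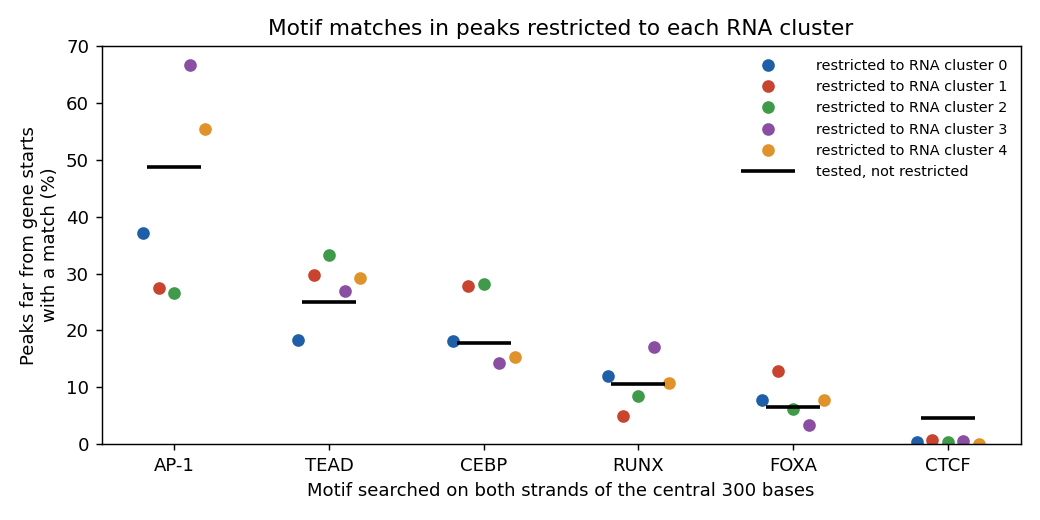
Percent of members (vertical axis) with a match to each of 6 motifs (horizontal axis) in the central 300 bases. Coloured points are members restricted to clusters 0 to 4 and black lines the 11967 tested members that were not restricted; AP-1 is highest for cluster 3 at 66.7%, and CTCF is at most 0.660% in each restricted group against 4.61%.

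Members missing in a cluster gave another view of the same motifs. RUNX matches occurred in 22.1% of the 637 members missing in cluster 1, against 9.93% of members without a pattern. AP-1 matches occurred in 65.3% of those missing in cluster 1 and 62.3% of those missing in cluster 2, against 47.1% without a pattern. The median breadth of these groups was 2.29%, 2.99% and 1.53% of nuclei, and AP-1 matches were more frequent in broader members. The part of breadth in these shares was not tested. FOXA matches occurred in 15.2% of the 382 members missing in cluster 2, against 3.61% of those missing in cluster 1 and 6.48% of the 10248 members without a pattern. CEBP matches occurred in 40.5% of the 37 members missing in cluster 4, against 17.5% of those without a pattern. CTCF matches were found in 0.314% of members missing in cluster 1, and in 5.25% of those without a pattern.

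RNA of the factors is set beside these shares, as levels per 1000000 RNA UMIs in clusters 0 to 4. These genes were listed after the motif shares had been seen. RUNX1 had 249, 36.5, 88.7, 297 and 435 CPM and RUNX2 had 50.6, 5.97, 12.8, 88.0 and 57.2 CPM, so both were lowest in cluster 1. RUNX3 was scarce, at 3.93, 4.81, 13.5, 1.48 and 1.44 CPM, and was lowest in clusters 3 and 4. FOXA2 was highest in cluster 1, at 30.7 CPM, and FOXA1 had 18.0, 19.3, 1.47, 2.83 and 22.4 CPM, lowest in cluster 2, as was FOXA2 at 1.31 CPM. Among CEBP genes, CEBPB was highest in cluster 2, at 385 CPM against 109 to 149 CPM elsewhere. CEBPD was also highest there, at 129 CPM against 76.2 to 113 CPM. CEBPG and CEBPA were highest in cluster 1, at 39.8 CPM against 15.2 to 28.6 CPM and at 7.66 CPM against 0.206 to 2.57 CPM.

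AP-1 genes did not move as a block. FOSL1 had 157, 85.4, 39.3, 149 and 261 CPM and JUN had 164, 80.3, 14.4, 124 and 528 CPM, both highest in cluster 4 and lowest in cluster 2. JUNB was highest in cluster 3, at 221 CPM against 78.4 to 150 CPM elsewhere, FOS was highest in cluster 1, at 147 CPM, and FOSL2 and JUND lay within 31.0 to 46.3 and 30.5 to 39.7 CPM. TEAD1, the most abundant TEAD gene, ranged from 189 CPM in cluster 4 to 412 CPM in cluster 1. The 20% portion gave the same highest cluster for FOSL1, JUN, JUNB, FOS, FOXA2, CEBPB, TEAD1, RUNX1 and RUNX2. Whether these RNA levels have a part in the motif shares was not tested.

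The share of a nucleus' ATAC counts that fell in members differed between clusters. Its median was 8.13% over all nuclei of the 80% portion, with quartiles at 7.09% and 9.03%. Cluster 3 was highest at 9.61% (quartiles 8.83 and 10.4) and cluster 1 lowest at 6.54% (5.81 and 7.26), with 8.40%, 7.98% and 8.64% in clusters 0, 2 and 4. In the 20% portion, with its own peaks, the medians were 7.63%, 5.43%, 6.71%, 8.36% and 7.44% in clusters 0 to 4, with the same order of clusters except that 0 and 4 changed places. The share in gene-start peaks ran in the opposite order, from 57.7% in cluster 1 to 49.1% in cluster 3. Median depth was 7343 ATAC counts in cluster 1, 6516 in cluster 2 and 10037 to 11502 in the others, so depth differed beside the shares, and its part in them was not tested. The decile of nuclei with the fewest ATAC counts had a median of 7.67% and the decile with the most 8.46%. Nuclei are not replicates, so these medians and quartiles carry no test.

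**Figure D5:**
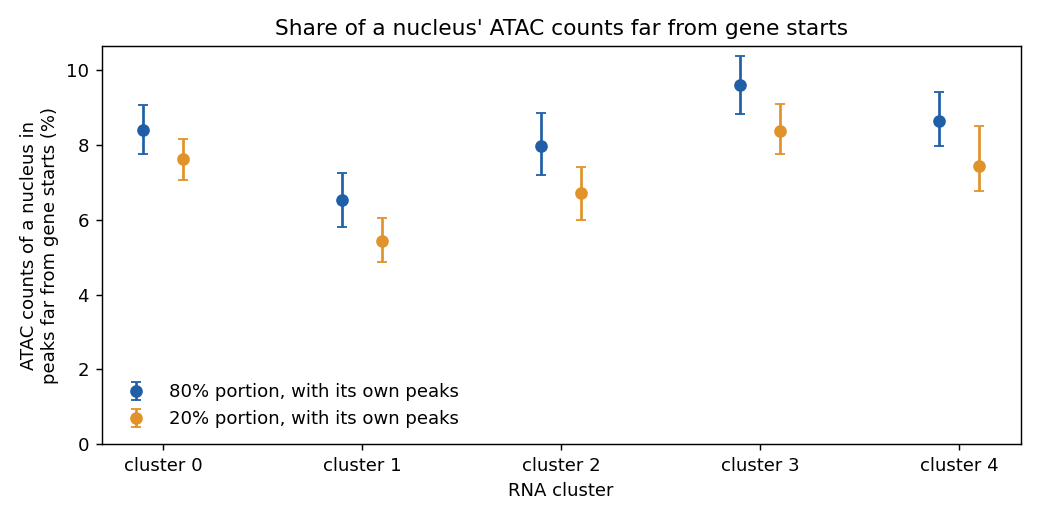
Percent of a nucleus' ATAC counts in peaks over 50000 bp from gene starts (vertical axis) for the 5 RNA clusters (horizontal axis). Points are medians and bars quartiles over nuclei, in blue for the 80% and in orange for the 20% portion; cluster 3 is highest (9.61% and 8.36%) and cluster 1 lowest (6.54% and 5.43%) in both.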

How the data were processed

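For either portion the authors deposited raw whole-number counts in a matrix (RNA UMIs per gene and ATAC counts per peak), made with Cell Ranger ARC 2.0.0 per the file headers on hg38. Cell calling had been applied and peaks were those found in each portion apart, so members and their 20% counterparts were joined by an overlap of at least 1 bp. Parameters and the gene annotation are not given in the sources used here. Feature positions, deposited as other columns of the feature table, gave the gene-start intervals; for 92.8% of 35104 genes matched by ID the GENCODE v44 5′ end lay within 1000 bp of them. Positions are printed 1-based. The matrix of both portions together and the long-read files were not used here. Every column of values used was matched to its portion.

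RNA clusters of the 80% nuclei came from Seurat 5.3.0 in R 4.3.3 (Louvain, 2000 variable genes, 30 components, 20 neighbours, resolution 0.05, the lowest with at least 5 clusters), and 20% nuclei took the cluster whose mean log profile they correlated with most. Scrublet (scanpy 1.11.5, assumed rate 0.06) marked doublets, which were kept. CPM are counts per 1000000 ATAC counts (or RNA UMIs) of the cluster, without a pseudocount. Sequences were read from the hg38 reference, 300 bases around each peak centre, and 15 motifs were searched on both strands, among them NFI (TTGGCA), NFY (CCAAT), GRHL (AACCNGGTT), SOX (ACAATGG) and NRF2 (TGACNNNGC), which can overlap AP-1; 1 of the 15 and some sequences are not reported here. Their shares in members were 20.4%, 35.4%, 0.251%, 4.06% and 16.2%, and those of ETS and NRF1 1.24% and 0.320%. Python 3.11.15, scipy 1.17.1 and pandas 2.3.3 were used. The calls, the division by flanking peaks and the distances were tested on simulated data. Simulated counts were drawn independently, without the excess of even values in the real ones. Calls were scored only in peaks with at least 200 nuclei. Most tested and most restricted members were narrower, so calls in their range were not checked in this way. No statistical test was made across the single libraries.

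The members and the lists were chosen with earlier results of these data known. Regions were named by rule: the 3 restricted members with the highest CPM in each cluster, the 5 found in the most nuclei and the farthest tested, each at most 1 per 1 Mb within its kind, the 2 on either side of the limit and the 5 windows with the most members. The windows with the most restricted members, the 8 host genes and the factor genes were added after values were seen. Alternatives covered the distance limit, depth, doublets, thinning, the fold, the breadth minimum, cluster sizes and number, random seed, flanks, shared barcodes, overlap, genes in reach, the RNA minimum and window length.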

Additional observations from a re-analysis of the deposited data

How the results depend on the processing

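No paired analysis was possible because each portion gave 1 library of each kind. A limit of 20000 bp gave 57034 members and 100000 bp gave 10077, and adding GENCODE v44 starts left 9498. With the 20% peaks the members were 14.3% of peaks and held 7.29% of counts. Without doublets they held 8.23% of counts, and peaks with a count in place of counts gave 8.48%. The median breadth was 0.382% of nuclei after thinning and 1.79% in the 20% portion, where only members with an overlapping peak enter (1.65% for these in the 80% portion). The restricted share of members and gene-start peaks was 28.7% and 17.7% at 2-fold, 3.74% and 1.80% at 8-fold, 7.50% and 3.28% from 100 nuclei, 7.88% and 3.81% after division by flanking peaks, and 7.98% and 4.32% with 6 clusters. From 10 nuclei it was 6.17% for gene-start peaks, and for members it was 10.6% without doublets. In each of the 12 settings run for both classes it was higher for the members, by a factor of 1.60 to 2.28. These settings did not match the classes in breadth, so the factor holds the difference in breadth as well. At equal breadth the shares were 12.3% against 11.2% at 50 to 99 nuclei and 2.46% against 1.13% at 400 to 799. The share with the same top cluster in the 20% portion was 96.2% for members restricted after the division, and the share with the nearest gene highest in the same cluster was 36.6%, or 70.5% with any gene within 500000 bp. AP-1 matches were found in 35.3% of members in 200 bases and 49.1% in 500 bases. The 20% medians of the share per nucleus were 7.63%, 5.43%, 6.71%, 8.36% and 7.44% for clusters 0 to 4. Clusters thinned to equal counts gave 10.2% for members, within the interval. The depth filter, the other random seed, the 50% overlap and leaving out shared barcodes moved no result beyond its interval. The 6 clusters, the members without GENCODE starts, those outside the 5 windows and the later uses of the division were added after the data were seen.

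With 1 library per portion no value carries an error between cultures. Members found in under 50 nuclei, 49.4% of all, were too sparse to test, and in cluster 4, with the fewest counts, 4151 members had no count at all. A count of 0 there allows up to 0.766 CPM. The division by flanking peaks also removes differences shared by a whole region. Motif words are short and depend on base composition, and the regions that share a sequence family were not set apart.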

Other observations

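Among members, NRF2 matches (TGACNNNGC, which can overlap AP-1 matches) rose with breadth, from 14.9% of those found in under 1% of nuclei to 26.0% of those found in at least 10%. The same shares were 15.6% and 22.4% among intermediate peaks, and 14.5% and 17.1% among gene-start peaks. NFY matches (CCAAT) occurred in 49.5% of the 204 members restricted to cluster 3 and in 18.5% of the 65 restricted to cluster 4, against 32.7% of all peaks on chr1 to chr22. With 6 clusters, the parts of cluster 3 with 469 and 366 nuclei had 48.5% of 68 and 29.9% of 67 members. This short word occurred in 35.4% of all members and in 38.5% of the windows 3000 bp beside them. On chromosome 19, which had the fewest members, 20 were restricted, 21.5% of those tested there, and 11 of these lay in the window chr19:23000001-24000000, where flanking peaks were 4.28 times higher in cluster 3 than in the next cluster. The lowest share per chromosome was 7.51%, on chromosome 17. SH3RF3 held 5 restricted of 21 tested members in its introns, the highest number restricted among the 8 host genes listed. Its summed member levels were 206, 31.8, 158, 83.8 and 52.4 CPM in clusters 0 to 4, beside RNA of 26.7, 3.66, 22.8, 1.42 and 6.17 CPM.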
